A study of Mus musculus with 2 samples.

Results

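The keratins of simple epithelia Krt8, Krt18, Krt7 and Krt19 were followed in single mouse pseudoblastocysts. They were chosen by name as a family, with earlier results of these data known, and are 4 of the 52366 genes in the count table. All 4 had at least 1 UMI (unique molecular identifier, the tag that marks a captured transcript). Krt8, Krt18 and Krt7 passed the filter on low counts and were tested, and Krt19 was not.

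Pseudoblastocysts are embryos with a cavity, collected whether or not they hold an inner cell mass (ICM), so they can include trophoblastic vesicles. All 24 embryos came from B6D2F1 oocytes fertilized in vitro with ICR sperm, had lost the zona pellucida and were cultured to 96 h postinsemination (hpi). The 6 1C embryos grew from whole zygotes treated at 5 hpi. The 6 2CB, 6 4CB and 6 8CB embryos each grew from 1 blastomere, taken from 2-cell embryos at 24 hpi, from 4-cell embryos at 48 hpi or from 8-cell embryos at 48 hpi. RNA of each whole embryo was barcoded and sequenced by CEL-Seq2, which tags the 3′ end of transcripts. Because an embryo was lysed whole, fewer trophectoderm cells and less keratin RNA per trophectoderm cell cannot be told apart.

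Keratins are the intermediate filament proteins of epithelial cells. A filament is built from pairs of a type I keratin, such as Krt18 or Krt19, and a type II keratin, such as Krt8 or Krt7, so that neither type polymerizes alone. In the preimplantation embryo Krt8 and Krt18 mark the trophectoderm, the outer epithelium that encloses the cavity, and their filaments are anchored at desmosomes.

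The 2 library pools, one of 1C with 8CB embryos and one of 2CB with 4CB embryos, were the same division as the main difference described here, so pool and stage pair cannot be told apart. Totals ranged from 70941 to 368348 UMIs per embryo in the 1C and 8CB pool and from 132725 to 1507471 in the 2CB and 4CB pool. The same 12 embryo barcodes were used once in each pool. Levels are given as CPM, counts per 1000000 counts in that embryo. One gene reached 53029 in a single embryo, more than the tags that 6 bases can form, so values were not numbers of distinct tags per gene. How duplicate reads were grouped beyond the tag is not stated in the sources used here. Whether each count is 1 molecule is therefore open, and intervals given for counts cover counting error only. Of 18 trophectoderm markers, all 18 had UMIs and passed the filter, and their summed level lay between 1530 and 2706 CPM in the 1C embryos, 5636 and 7565 for 2CB, 5535 and 7364 for 4CB, and 2136 and 3268 for 8CB.

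Of the 4 genes, 3 lie on chromosome 15 of GRCm38. Krt8 (ENSMUSG00000049382.9, 101996711 to 102004342, minus strand) and Krt18 (ENSMUSG00000023043.6, 102028216 to 102032026, plus strand) are neighbours transcribed away from each other, and Krt7 (ENSMUSG00000023039.16, 101411043 to 101430313, plus strand) lies in the same keratin cluster. Krt19 (ENSMUSG00000020911.14, 100140810 to 100148665, minus strand) is on chromosome 11. The 3 genes of chromosome 15 were all called higher in the 2CB/4CB pool, as were 31.3% of all tested genes, and this count is not read as a result. Their promoters are shown side by side, from 250 bases before the first base of the RefSeq gene to base 50 of the gene (RefSeq, GRCm38.p6, each read 5′ to 3′ on the strand of its gene). Capitals mark matches to the motifs listed after the sequences. The regions are chr15:102004293-102004592 (minus strand) for Krt8, chr15:102027966-102028265 (plus strand) for Krt18 and chr15:101412153-101412452 (plus strand) for Krt7.
Krt8: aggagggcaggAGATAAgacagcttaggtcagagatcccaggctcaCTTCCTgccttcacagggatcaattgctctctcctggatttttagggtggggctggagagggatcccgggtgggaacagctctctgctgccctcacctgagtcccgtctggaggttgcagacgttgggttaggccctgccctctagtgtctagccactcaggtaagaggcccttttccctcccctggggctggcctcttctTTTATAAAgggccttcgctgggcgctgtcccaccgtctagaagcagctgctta
Krt18: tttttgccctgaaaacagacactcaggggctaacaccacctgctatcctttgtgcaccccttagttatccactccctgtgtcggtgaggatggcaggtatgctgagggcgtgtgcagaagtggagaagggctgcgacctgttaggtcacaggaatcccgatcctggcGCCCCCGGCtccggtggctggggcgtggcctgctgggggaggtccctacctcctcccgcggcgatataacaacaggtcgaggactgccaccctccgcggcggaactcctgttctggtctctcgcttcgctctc
Krt7: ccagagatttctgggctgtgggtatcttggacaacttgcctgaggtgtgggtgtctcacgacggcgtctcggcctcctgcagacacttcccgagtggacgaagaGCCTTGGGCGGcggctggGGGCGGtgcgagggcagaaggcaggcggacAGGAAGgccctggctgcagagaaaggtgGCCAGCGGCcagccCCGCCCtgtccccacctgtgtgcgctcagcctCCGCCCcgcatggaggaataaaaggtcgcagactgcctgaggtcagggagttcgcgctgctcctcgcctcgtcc

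For 8 motifs, matches were sought on both strands in these 3 promoters and in all 32851 promoters of the RefSeq table, which have the same length. GCCNNNGGC, a site of TFAP2 factors, occurred once in the Krt18 promoter, 83 bases before the gene, and 2 times in the Krt7 promoter, and was held by 16.6% of all promoters. GGGCGG, the GC box of Sp and Klf factors, occurred 4 times in the Krt7 promoter, one of them overlapping a TFAP2 match, and in 35.7% of all promoters. AGGAAG, an ETS core, occurred in the Krt8 and Krt7 promoters and in 35.4% of all. The Krt8 promoter also held AGATAA, a site of zinc finger factors such as Gata2, found in 11.2% of all promoters. It held TATAAA, a core promoter element found in 13.6% of all, in overlapping matches on both strands at the annotated start. GGAATG of TEAD factors (14.7% of all promoters), TTTATNG of CDX factors (10.9%) and TGANTCA of AP-1 (7.81%) were in none of these 3 windows. No letters searched were shared by all 3. The share of G and C was 58.0% for Krt8, 61.3% for Krt18 and 66.3% for Krt7, beside a median of 52.7% over all promoters.

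Krt18, the type I partner of Krt8, was the most counted keratin in every stage, with 7534 of the 8311 UMIs of the 4 genes. In 1C embryos it had 1 to 31 UMIs per embryo, at 2.89 to 90.4 CPM (median 18.4), and in 8CB embryos 2 to 32 UMIs, at 13.1 to 89.7 CPM (median 39.7). In 2CB embryos it had 465 to 1140 UMIs, at 519 to 2518 CPM (median 1454), and in 4CB embryos 113 to 1062 UMIs, at 745 to 1921 CPM (median 1025). The pools did not overlap: the lowest 2CB/4CB embryo, at 519 CPM, was above the highest 1C/8CB embryo, at 90.4. The mean level was 1332 ± 595 CPM in 2CB and 4CB against 40.0 ± 33.8 CPM in 1C and 8CB (SD, n = 12 each).

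For the 2CB/4CB over the 1C/8CB embryos, the fitted log2 fold change of Krt18 was 5.03, with a standard error (SE) of 0.40, or about 32.6-fold (adjusted p = 3.81e-11 by the quasi-likelihood test of edgeR, with the Benjamini-Hochberg method). In this comparison 31.3% of the 5940 tested genes were called higher (1861 genes) and 1424 genes lower, together 55.3%, at an adjusted p below 0.1. In 3.54% of the genes the 2CB/4CB embryos were all above the others without overlap. Over all tested genes the median was 0.12 on the log2 scale, and 60 genes had a larger log2 fold change than Krt18. By mean level the order of the stages was 2CB, 4CB, 8CB and 1C. The neighbours 2CB (1448 ± 700 CPM) and 4CB (1217 ± 508) did not pass the threshold (log2 fold change of 4CB against 2CB -0.28, 95% interval -1.15 to 0.58), nor did 8CB (42.1 ± 29.1) and 1C (37.9 ± 40.6; log2 fold change 0.26, 95% interval -0.89 to 1.40; SD, n = 6 each). The step between 4CB and 8CB did (log2 fold change of 8CB against 4CB -4.76, SE 0.55, adjusted p = 2.41e-07).

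**Figure D1:**
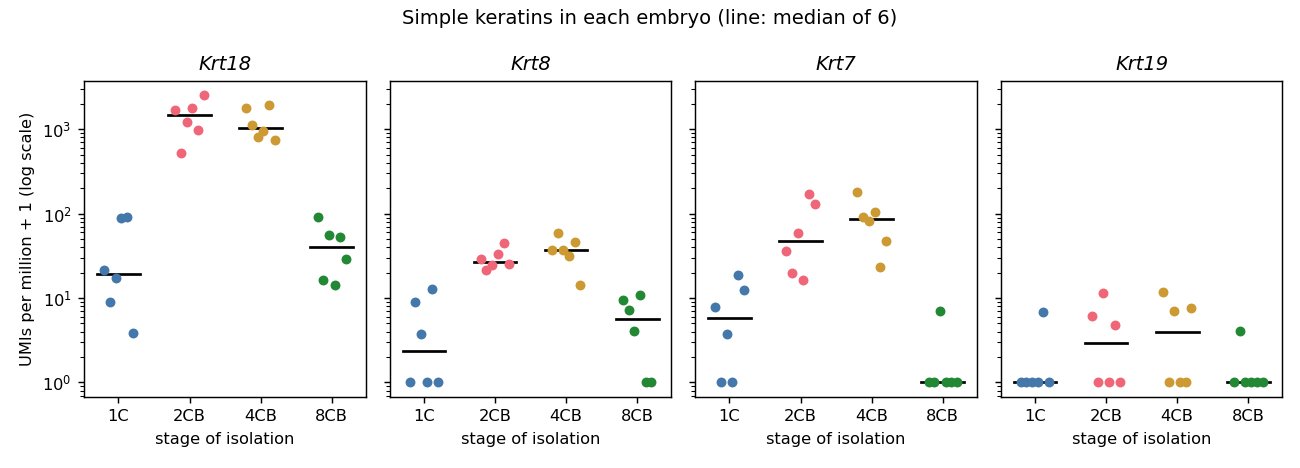
Level of each simple keratin in every embryo, as CPM plus 1 on a log axis, by stage of isolation; each point is 1 embryo and each line the median of 6. Krt18 and Krt8 are higher in all 12 2CB and 4CB embryos than in any 1C or 8CB embryo, Krt7 overlaps at 1 embryo of each side, and Krt19 is at or near 0 in most embryos.

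Krt8, the type II partner of Krt18, was counted far less. It had 0, 1, 1, 0, 4 and 0 UMIs in 1C embryos 1 to 6 and 3, 2, 1, 3, 0 and 0 in 8CB embryos 1 to 6. It had 8 to 46 UMIs in 2CB embryos (20.6 to 44.0 CPM, median 26.0) and 2 to 34 in 4CB embryos (13.2 to 57.4 CPM, median 36.1). The highest 1C or 8CB embryo, 1C embryo 5 at 11.7 CPM, lay just under the lowest 2CB or 4CB embryo, 4CB embryo 6 at 13.2 CPM with 2 UMIs, so that the sides did not overlap but lay closer than the worth of 1 UMI in the latter embryo. Mean Krt8 was 32.5 ± 12.2 CPM in 2CB and 4CB and 4.16 ± 4.43 CPM in 1C and 8CB (SD, n = 12 each). The fitted difference was 2.64 on the log2 scale (SE 0.43, 6.23-fold, adjusted p = 8.44e-06 by the same edgeR test). By mean level the order was 4CB (36.3 ± 14.8 CPM), 2CB (28.8 ± 8.54), 8CB (4.58 ± 4.22) and 1C (3.73 ± 4.98; SD, n = 6 each). Neither 4CB against 2CB (log2 fold change 0.27, 95% interval -0.63 to 1.18) nor 8CB against 1C (0.51, 95% interval -0.97 to 1.99) passed the threshold, and 8CB against 2CB did (-2.25, SE 0.58, adjusted p = 0.00362). With every embryo thinned to 70941 UMIs and the same genes tested, 8CB against 2CB (-1.79, adjusted p = 0.211) and 2CB against 1C (1.38, adjusted p = 0.310) did not pass.

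Krt7, a type II keratin of simple and ductal epithelia and of trophoblast, varied more between 2CB or 4CB embryos, relative to its mean, than Krt18 or Krt8 did. It had 1, 0, 1, 0, 6 and 4 UMIs in 1C embryos 1 to 6, and in 8CB embryos 2 UMIs in embryo 3 and 0 in the other 5. In 2CB embryos it ranged from 15.5 to 168 CPM (10 to 176 UMIs, median 46.5 CPM) and in 4CB embryos from 22.6 to 181 CPM (3 to 116 UMIs, median 84.5 CPM). The sides overlapped at 1C embryo 5, with 17.5 CPM, and 2CB embryo 4, with 15.5 CPM; the other 11 embryos of each side did not overlap with the opposite one. Mean Krt7 was 78.8 ± 57.1 CPM in 2CB and 4CB against 3.72 ± 5.76 CPM in 1C and 8CB (SD, n = 12 each). The fitted difference was 4.42 on the log2 scale (SE 0.57, adjusted p = 2.96e-07 by edgeR). Without 8CB embryo 3, which held the only Krt7 UMIs of its stage, the fitted value was 5.61 (adjusted p = 1.45e-06), and a fitted fold against a stage at 0 depends on the prior count.

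By mean level the order for Krt7 was 4CB (86.9 ± 54.8 CPM), 2CB (70.8 ± 63.5), 1C (6.44 ± 7.01) and 8CB (1.01 ± 2.48; SD, n = 6 each). The first 2 did not pass the threshold (log2 fold change of 4CB against 2CB 0.32, 95% interval -0.72 to 1.37), and the step from 2CB to 1C did (log2 fold change of 2CB against 1C 3.11, SE 0.69, adjusted p = 9.19e-04). Between 8CB and 1C, Krt7 had the largest difference of the 3 tested keratins. It had 2 UMIs against 12, and the ratio of summed UMIs over summed totals was 0.161 (95% counting limits 0.0175 and 0.724). Its log2 fold change of -2.30 (SE 1.16) did not pass the threshold (adjusted p = 0.554). Without 8CB embryo 3, which leaves that stage at 0, the fitted value was -4.76 (adjusted p = 0.457), and over all single embryos left out it ran from -4.76 to -1.75. In 1C, 10 of the 12 UMIs lay in embryos 5 and 6. Against the 2 UMIs of 8CB, the 293 UMIs of 2CB and the 230 of 4CB gave ratios of the same kind, 8CB over the other stage, of 0.0196 (95% counting interval 0.00236 to 0.0714) and 0.0136 (0.00164 to 0.0497).

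Krt19, the smallest type I keratin, was at the limit of detection. Its 2 UMIs of 1C were both in embryo 5, and it had 10 UMIs in 2CB embryos, 7 in 4CB embryos and 1 in an 8CB embryo, so that 16 of the 24 embryos had 0. No embryo exceeded 10.9 CPM. Its mean level was 3.56 ± 4.20 CPM in the 2CB/4CB pool (17 UMIs) and 0.745 ± 1.84 CPM in the 1C/8CB pool (3 UMIs; SD, n = 12 each). Pooled over embryos, as summed UMIs over summed totals, the ratio was 2.51, and its 95% counting interval, 0.727 to 13.4, includes 1, so a difference was not detectable at this depth. Tested without a filter, where 14.2% of 23171 genes were called higher in the 2CB/4CB pool, Krt19 had a log2 fold change of 1.54 (SE 0.92, adjusted p = 0.278 by edgeR).

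Over all 4 stages, edgeR's F test called Krt18 (adjusted p = 8.79e-10), Krt7 (5.32e-06) and Krt8 (1.33e-04), where it called 47.1% of all tested genes. The 4 pairs of stages that lie in different pools were called for each of the 3 genes. The shares of all genes called in the same direction were 24.1% higher for 2CB against 1C, 23.5% higher for 4CB against 1C, 22.0% lower for 8CB against 2CB and 23.2% lower for 8CB against 4CB. Within a pool none of the 3 was called, where 0.0% of genes were called for 8CB against 1C (0 of 5940, with 552 at an unadjusted p below 0.05, and 43 by DESeq2) and 0.0337% for 4CB against 2CB. The filter asked for about 30.2 CPM in at least 6 embryos. Krt8 reached that level in 2 2CB and 4 4CB embryos and in none of 1C or 8CB, and Krt7 in 4 2CB and 5 4CB embryos and in none of 1C or 8CB. Both therefore passed only through the stages where they were high, and the count of 3 called among 3 tested is not read as a result about the keratins.

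**Figure D2:**
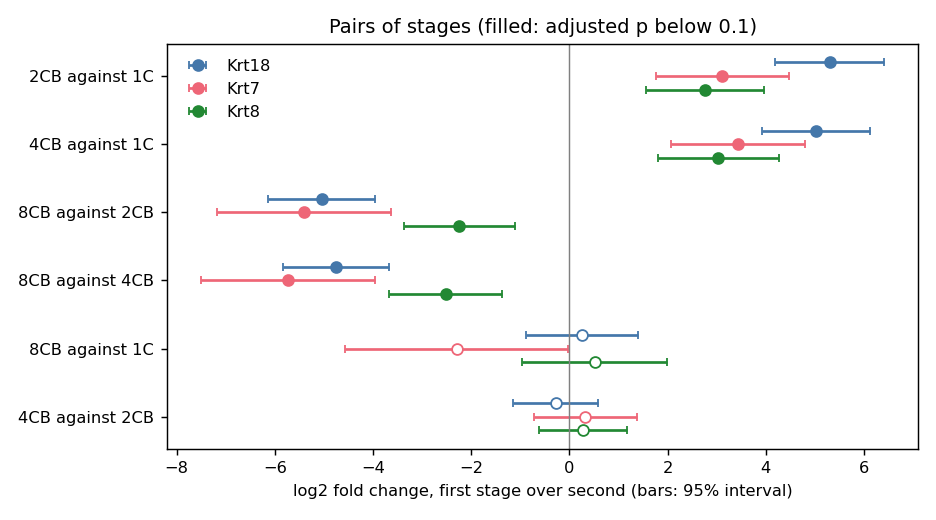
Log2 fold change of each tested keratin for the 6 pairs of stages, first stage over second, with 95% intervals; filled points passed an adjusted p below 0.1. The 4 pairs across pools are filled for all 3 genes and the 2 pairs within a pool are open.

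Krt18 and its partner Krt8 did not differ between the pools by the same factor. Krt18 had 36.2 UMIs for each Krt8 UMI in 2CB and 4CB (7414 against 205, exact 95% counting interval 31.5 to 41.8) and 8.00 in 1C and 8CB (120 against 15, interval 4.66 to 14.7). Since the genes differ in length and in their 3′ ends, only the change of the ratio is compared here, not the ratio with 1. Per embryo, the log2 ratio of Krt18 to Krt8, with 0.5 UMI added to each count, was 5.24 ± 0.71 in 2CB and 4CB and 2.35 ± 1.38 in 1C and 8CB (SD, n = 12 each). The difference of 2.89 was past the threshold of 0.05 (two-sided permutation test with 100000 resamples, p = 2.00e-05, Benjamini-Hochberg adjusted p = 1.80e-04 over 18 tests of 6 pairs in 3 comparisons). The added 0.5 UMI draws the ratio toward 0 on the log2 scale where counts are low, as in the 5 1C and 8CB embryos without Krt8. Within a pool the ratio of Krt18 to Krt8 was at 8.83 in 1C and 7.44 in 8CB, and at 39.0 in 2CB and 31.6 in 4CB, and the exact permutation tests of 6 against 6 embryos gave adjusted p = 0.933 and 0.421. The 3 ratios with Krt19 as the second gene differed between the pools past the threshold as well (permutation tests, adjusted p = 1.80e-04 for Krt18, 1.80e-04 for Krt7 and 0.00387 for Krt8), on 20 Krt19 UMIs, so that the added 0.5 UMI sets the Krt19 value of 16 embryos. At equal depth the ratio of Krt8 to Krt19 did not pass (adjusted p = 0.243).

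For Krt18 to Krt7 the ratio of summed UMIs was 14.2 in 2CB and 4CB (interval 13.0 to 15.5) and 8.57 in 1C and 8CB (4.91 to 16.2), and these intervals overlap. Of the 12 1C and 8CB embryos, 7 had 0 Krt7 UMIs and 5 had 0 Krt8 UMIs, so the UMIs added before the log set their ratios per embryo. The difference in mean log2 ratio of Krt18 to Krt7 per embryo, 1.67, did not pass (permutation test, p = 0.0155, adjusted p = 0.0559). It moved with the amount added, to 2.16 with 1 UMI (adjusted p = 0.00317) and was 2.67 in thinned embryos (adjusted p = 0.00834), so that no change of this ratio between the pools is read from it. The adjusted p also passed without 1C embryo 4 (adjusted p = 0.0276), 2CB embryo 5 (0.0348), 8CB embryo 1 (0.00713) or 8CB embryo 5 (0.0498). In 1C alone the ratio was 4.42 (2.33 to 9.08), and in 8CB it was 33.5 (8.92 to 282) on 2 Krt7 UMIs. The difference between those stages, 1.90 on the log2 scale, did not pass (exact permutation test, p = 0.0714, adjusted p = 0.184), and without 1C embryo 4 it passed (2.47, adjusted p = 0.0156). For the 2 type II keratins, Krt7 to Krt8, the ratio was 2.55 (2.17 to 3.01) in 2CB and 4CB and 0.933 (0.417 to 2.07) in 1C and 8CB, and the difference in mean log2 ratio was 1.22 (permutation test, p = 0.0633, adjusted p = 0.184). Without 1C embryo 6 that difference passed (1.53, adjusted p = 0.0464).

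**Figure D3:**
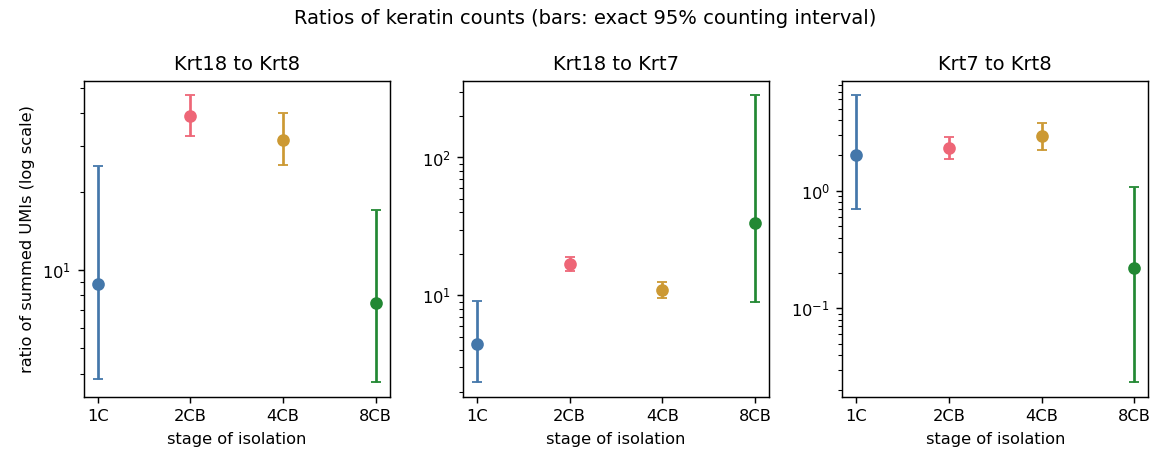
Ratio of summed UMIs of 2 keratins in the 6 embryos of each stage, on a log axis, with exact 95% counting intervals. The ratio of Krt18 to Krt8 is 8.83 in 1C and 7.44 in 8CB and 39.0 in 2CB and 31.6 in 4CB; the ratios with Krt7 in 8CB rest on 2 UMIs.

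Expressed as shares, Krt18 made up 92.0% of the UMIs of the 4 keratins in 2CB (exact binomial 95% interval 91.2% to 92.7%), 88.8% in 4CB (87.6% to 89.9%), 72.6% in 1C (60.9% to 82.4%) and 84.8% in 8CB (75.0% to 91.9%). Krt8 made up 2.36% in 2CB and 2.81% in 4CB, and 8.22% (3.08% to 17.0%) in 1C and 11.4% (5.34% to 20.5%) in 8CB. Krt7 had its highest share in 1C, 16.4% (8.79% to 27.0%), where it came from 12 UMIs.

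Among embryos of the same stage, no correlation between the levels of different keratins passed the threshold. After the stage mean was taken from the log2 CPM (prior count 2), Pearson's r over the 24 embryos was 0.14 for Krt18 with Krt8, 0.11 for Krt18 with Krt7 and 0.12 for Krt7 with Krt8 (Spearman's rho 0.11, 0.15 and 0.13). Over 6 pairs of genes, permutation within stages gave an adjusted p of 0.764 for each r and of 0.790 for each of these rho values. The largest of the 6 was Krt7 with Krt19 (r 0.35, rho 0.24, 0.46 without the 2 farthest embryos), where 16 embryos had no Krt19 UMI. Krt8 with Krt19 had r of 0.52 in the 1C and 8CB embryos, on 3 Krt19 UMIs, and -0.27 in the 2CB and 4CB embryos. Of those 3 UMIs, 2 were in 1C embryo 5. Without that embryo r over all stages was -0.12 for Krt8 with Krt19. It was -0.0423 for Krt18 with Krt8, -0.0263 for Krt18 with Krt7 and -0.00545 for Krt7 with Krt8. For the latter pairs, in that order, r was 0.38, 0.15 and 0.21 in the 12 2CB and 4CB embryos, and 0.05, 0.09 and 0.06 in the 12 1C and 8CB embryos. Without the 2 embryos farthest from the median it was 0.10, 0.11 and 0.08, and in embryos thinned to equal depth Krt18 with Krt8 (-0.28) and Krt7 with Krt8 (-0.39) changed sign. In 2CB, Krt18 was highest in embryo 6 (2518 CPM), where Krt8 had rank 4, while Krt8 (44.0 CPM) and Krt7 (168 CPM) were both highest in embryo 5, where Krt18 had rank 5. In 4CB, embryo 5 had the highest Krt18 (1921 CPM) and the lowest Krt7 (22.6 CPM, 3 UMIs).

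One 1C embryo was the highest of its stage for all 4 keratins. Embryo 5 had 90.4 CPM of Krt18, 11.7 of Krt8 (4 UMIs), 17.5 of Krt7 (6 UMIs) and 5.83 of Krt19 (2 UMIs). These summed to 125 CPM beside 14.4 to 89.0 CPM in the other 5, and Krt18 in embryo 4 was at 89.0 CPM. 1C embryo 5 shared its barcode with 2CB embryo 5, the highest of the 2CB embryos for Krt8 and Krt7. Whether the shared barcode had a part in these levels was not tested. No other embryo was highest in its stage for more than 2 of the 4 genes. Without 1C embryo 5 the log2 fold change of 4CB against 1C moved from 3.03 to 4.02 for Krt8 and from 5.02 to 5.67 for Krt18, and that of 2CB against 1C from 2.76 to 3.72 and from 5.30 to 5.93.

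**Figure D4:**
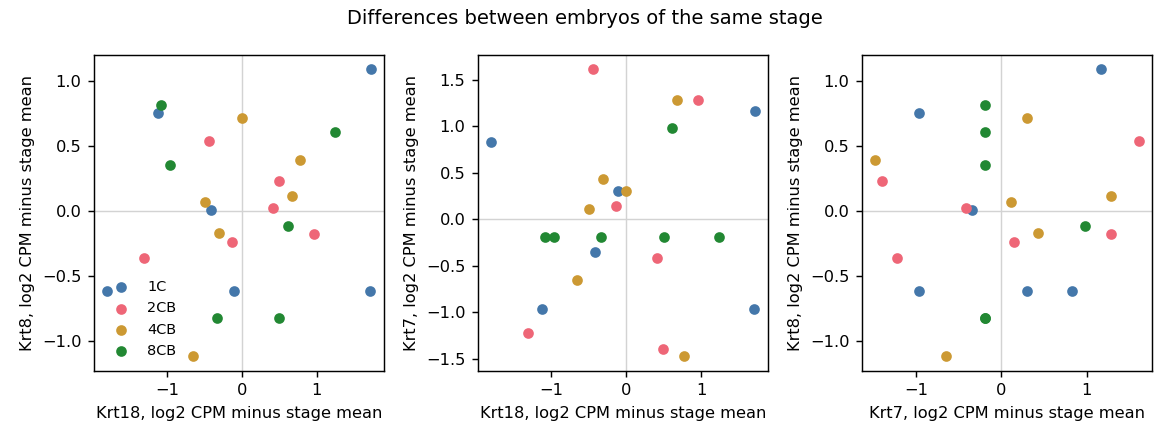
Log2 CPM of 2 keratins minus the mean of the stage, 1 point per embryo, coloured by stage. Pearson's r over the 24 embryos is 0.14, 0.11 and 0.12 from left to right, and 1C embryo 5 is at the upper right in each panel.

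Each 2CB or 4CB embryo shared its barcode with 1 embryo of the other pool. Counts in the 1C and 8CB embryos were 1.62% of those in the 2CB and 4CB embryos for Krt18, 2.68% for Krt7 and 7.32% for Krt8. By barcode, the percentage ran from 0.119% to 6.52% for Krt18, from 0 to 9.30% for Krt7 and from 0 to 30.0% for Krt8. Elf5 and Lama1, trophectoderm and primitive endoderm genes of the lists described next, had 1 UMI each in the 1C/8CB pool beside 1154 and 984 UMIs in the other, or 0.0867% and 0.102% (at most 2.0% and 6.67% by barcode). Gata2 had 7 beside 1567 UMIs, or 0.447% (at most 2.13%). With the shared barcode as a block the 3 log2 fold changes between the pools were 5.23 (Krt18), 4.69 (Krt7) and 2.81 (Krt8), all called.

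Other keratins were nearly absent. Of 54 keratin genes in the table, 17 had at least 1 UMI, and the 4 simple keratins held 8311 of the 8392 keratin UMIs. Of 22 keratins of stratified or other epithelia in a list, 8 had a UMI and 0 passed the filter. Krt10, a keratin of the upper epidermis, had 55 UMIs, more than the 20 of Krt19. Of these, 41 were in the 2CB/4CB pool and 14 in the 1C/8CB pool, with mean levels of 7.82 and 3.39 CPM, and the 95% counting interval of the ratio of summed UMIs over summed totals, 0.694 to 2.58, includes 1. None of the remaining 12 exceeded 5 UMIs.

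Among 15 other intermediate filament genes, 4 were tested, 2 were called higher in the 2CB/4CB pool and 1 lower, beside 31.3% and 1424 of 5940 over all tested genes, with a median log2 fold change of 0.17 beside 0.12 over all genes. Lmna, the A-type lamin of the nuclear envelope, had 1459 CPM in 2CB and 4CB and 238 CPM in 1C and 8CB on average (log2 fold change 2.64, SE 0.27, adjusted p = 6.46e-09). Its sides did not overlap, as was so for 3.54% of all tested genes in this direction. Lmnb1, a B-type lamin, rose by less (0.54, SE 0.23, adjusted p = 0.0530). Ina, a neuronal filament protein, fell by 3.65 on the log2 scale (SE 0.42, adjusted p = 3.55e-08), from 132 to 11.5 CPM on average. Vim, the filament protein of mesenchyme, had 79 UMIs in 2CB and 4CB and 2 in 1C and 8CB and did not pass the filter.

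Of 19 genes of desmosomes and plakins, the junctions and linkers that hold keratin filaments, 8 were tested, 6 were called higher in the 2CB/4CB pool and 0 lower, beside 31.3% and 1424 of 5940 over all tested genes, with a median log2 fold change of 1.51. Of the 6, 1 (Dsc2) never reached the filter level of 30.2 CPM in a 1C or 8CB embryo and so passed only through the embryos where it was high. Dsc2 and Dsg2, the desmosomal cadherins, had log2 fold changes of 5.27 (SE 0.57, adjusted p = 4.55e-08) and 4.14 (SE 0.43, adjusted p = 5.75e-09). Dsc2 had 0 UMIs in 1C embryos and 5 in 8CB embryos beside 167 in 2CB embryos and 121 in 4CB embryos. Neither gene overlapped between the sides, as was so for 3.54% of all tested genes in this direction. Dsp, desmoplakin, which binds the keratin filament directly, rose by 2.28 (SE 0.36, adjusted p = 7.00e-06), and Pkp4, a plakophilin, by 1.55 (SE 0.25, adjusted p = 9.66e-06). For Dst and Macf1, giant linkers of the cytoskeleton, the values were -0.54 (adjusted p = 0.140) and -0.15 (adjusted p = 0.526). With embryos thinned to equal depth and filtered again, 4 of 6 tested genes were called higher and 1 lower. Over all 2007 genes tested in that setting, 622 were called higher and 588 lower.

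Of 9 genes whose proteins bind, modify or cut simple keratins, 7 were tested, 3 were called higher and 1 lower, with a median of 0.21. Hspb1, a small heat shock protein, rose by 2.85 on the log2 scale (SE 0.44, adjusted p = 4.43e-06), Tradd, an adaptor of the tumour necrosis factor receptor, by 1.05 (SE 0.42, adjusted p = 0.0366) and Ogt, the enzyme of O-linked glycosylation with N-acetylglucosamine, by 0.78 (SE 0.23, adjusted p = 0.00636). Dnajb6, a chaperone of Krt18, fell by 0.97 (SE 0.17, adjusted p = 2.93e-05). Over all tested genes 31.3% were called higher, and 1424 of 5940 lower.

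Of 17 regulators of the trophectoderm, 14 were tested, 8 were called higher and 2 lower, beside 31.3% and 1424 of 5940 over all tested genes, with a median of 1.79. Of the 8, 3 (Gata2, Tfap2a and Elf5) never reached 30.2 CPM in a 1C or 8CB embryo, and of the 2, Hand1 never did in a 2CB or 4CB embryo, so that these passed the filter only through the pool where they were high and the counts and the median lean on them. Gata2, a zinc finger factor of trophoblast, had 1567 UMIs in 2CB and 4CB and 7 in 1C and 8CB (log2 fold change 7.50, SE 0.53, adjusted p = 4.59e-11), and Tfap2a, of the TFAP2 family, had a log2 fold change of 5.13 (SE 0.40, adjusted p = 3.50e-11). Elf5, an ETS factor, was the gene with 1154 UMIs against 1, a log2 fold change that depends on the prior count. Hand1, a factor of trophoblast giant cells, went the other way and fell by 4.64 (SE 0.62, adjusted p = 4.49e-07), and Tfap2c fell by 0.74 (SE 0.23, adjusted p = 0.0104). For Tead4, which acts upstream in the trophectoderm programme, the value was -0.01 with an SE of 0.19 (adjusted p = 0.968).

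**Figure D5:**
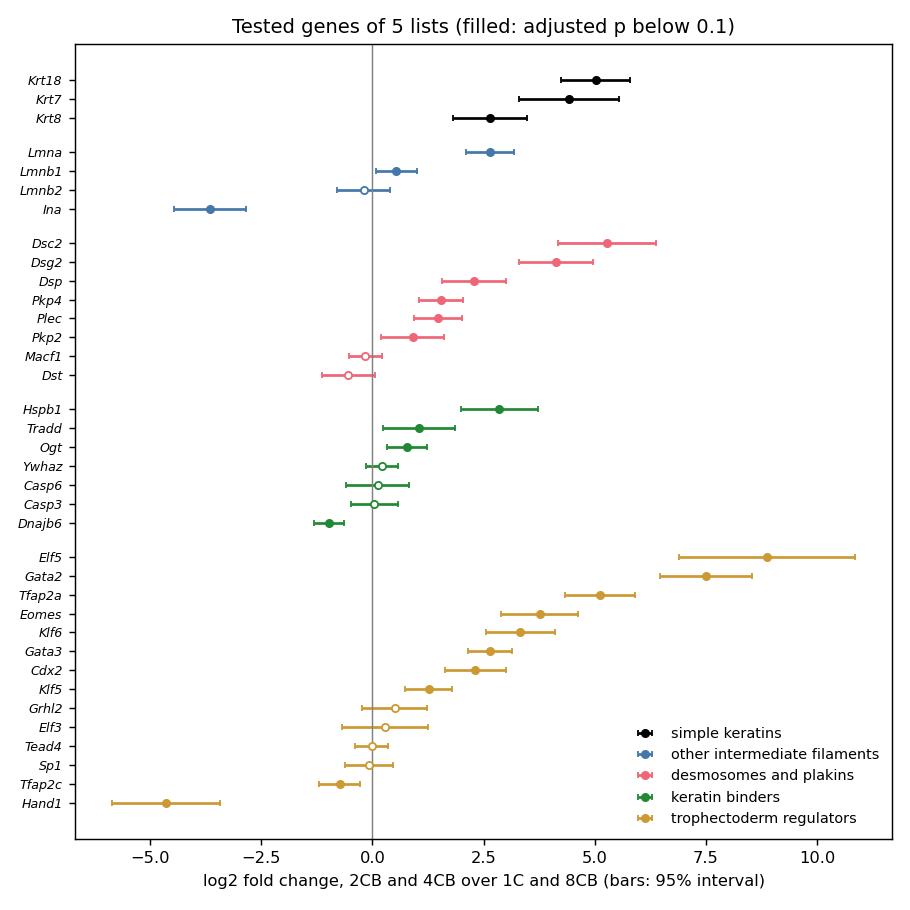
Log2 fold change of the tested genes of 5 lists for 2CB and 4CB over 1C and 8CB, with 95% intervals; filled points passed an adjusted p below 0.1. Filled points lie on both sides of 0, as among all tested genes, of which 31.3% were called higher and 1424 of 5940 lower; Krt8, Krt7 and Dsc2 are among those that passed the filter only through 2CB and 4CB embryos, and the value of Elf5, with 1 UMI on one side, depends on the prior count.

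Markers of the embryo's lineages moved in both directions between the same pools. Over all tested genes 31.3% were called higher and 1424 of 5940 lower. Of the 18 trophectoderm markers, 12 were called higher in the 2CB/4CB pool and 2 lower (median log2 fold change 1.69), with Id2, a helix-loop-helix inhibitor, at 7.03 (SE 0.36, adjusted p = 1.04e-14) and Tspan8, a tetraspanin, at 5.67 (SE 0.45, adjusted p = 4.59e-11). Of 14 primitive endoderm markers, 8 were tested and 6 were called higher and 1 lower (median 1.68). Among those higher were Sox17 (6.40, SE 1.06, adjusted p = 2.33e-05), Pdgfra (2.02, SE 0.57, adjusted p = 0.00398) and Lamb1 (1.77, SE 0.35, adjusted p = 1.42e-04). The 1 called lower was Gata6 (-0.67, SE 0.21, adjusted p = 0.0100). Of 15 epiblast and ICM markers, 11 were tested and 4 were called higher and 7 lower (median -0.52). Without the filter all 15 were tested, with 6 called higher and 6 lower, beside 3298 and 2227 of 23171 over all genes. Bmp4 (5.51, SE 0.60, adjusted p = 1.50e-08) and Sox2 (1.96, SE 0.52, adjusted p = 0.00243) rose, and Spic and Esrrb fell by 3.02 and 2.02 (adjusted p = 5.21e-06 and 4.85e-06). Among the genes called higher, 4 of the 12 trophectoderm, 2 of the 6 primitive endoderm and 1 of the 4 epiblast and ICM markers stayed under the filter level in every 1C and 8CB embryo, and passed the filter only through the other pool. Their part in the keratin difference was not tested.

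Of 12 cumulus and granulosa markers, 4 had a UMI, and Star, a cholesterol transporter of the mitochondrion, was the 1 tested (mean 38.5 CPM over all embryos, log2 fold change 1.24, SE 0.40, adjusted p = 0.0105), followed by Tnfaip6 at 1.17 CPM. Of 10 oocyte markers none passed the filter. Without it 3 were called lower in the 2CB/4CB pool, beside 2227 of 23171 over all genes. The 10 markers summed to between 26.0 and 110 CPM in 1C embryos, 14.1 and 68.2 for 8CB, 5.08 and 28.7 for 2CB, and 0 and 19.1 for 4CB, led by Zp3 and Gdf9 with 116 and 50 UMIs. None of 9 skin keratinocyte markers was tested. They were led by Krt10 and by Lor, with 10 UMIs, and no embryo exceeded 26.4 CPM over the 9 genes. The 8 fibroblast and blood markers, none of them tested, had at most 13.2 CPM in an embryo, with Col3a1 at 8 and Col1a2 at 4 UMIs in all.

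The 5 genes whose differences between embryos of a stage were most like the mean of the 4 keratins, among 3556 genes whose mean level reached 50 CPM, were Foxo4 (r = 0.75), Vdac1 (0.75), Agtrap (0.71), Ass1 (0.70) and Gnai2 (0.70), over 24 embryos. The median r of all 3556 genes was 0.06, and these 5 were picked as the highest, so no test is given. Foxo4, a forkhead factor, and Ass1, an enzyme of arginine synthesis, followed mainly Krt18 (r = 0.76 and 0.68), and Agtrap, a receptor-associated membrane protein, mainly Krt7 (0.61). With a prior count of 0.5 the 5 genes had ranks 7, 1, 2, 8 and 3.

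Near-identical copies were looked for. By alignment to GENCODE M21 transcripts, at least 90% identical over at least 100 bases, the pseudogene Krt8-ps matched 941 bases of Krt8 at 98.6% identity, but none of its last 500 bases, and had 1 UMI. Gm5200 matched 428 of the last 500 bases of Krt18 at 92.1% identity and was not analysed here. The last 500 bases of the Krt7 transcript matched transcripts of 94 other genes. The Krt7 gene of the table ends 2507 bases beyond its end in RefSeq, and whether reads of those genes were counted as Krt7 was not tested. Krt19 had no match. Gm36026 and Gm671 overlap Krt8 and Krt7, each on the opposite strand, and were not analysed here.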

How the data were processed

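Values were the UMI counts per gene and embryo that the authors deposited. Per the labels and the submitters' processing notes, CEL-Seq2 reads were aligned to GRCm38 with HISAT2 2.2.6 and counted with HTSeq 0.6.1; annotation release, strand setting and treatment of reads with several matches are not given in the sources used here. The deposited barcode file gave the shared barcodes, an entry of unit other. A further 24 columns of other embryos were not used. Symbols came from GENCODE M21 (51633 of 52366 genes). Counts were normalized by TMM (factors 0.936 to 1.05), filtered with filterByExpr and tested with edgeR 4.0.16 (R 4.3.3), a quasi-likelihood fit of 4 stage means to all 24 embryos; p was adjusted by the Benjamini-Hochberg method and called below 0.1, the rate the study used. The calls were tested on simulated data. Standard errors were derived from the F statistic. Alternatives used DESeq2 1.42.0. Ratios and correlations were tested by permutation (NumPy, SciPy 1.17.1), and transcripts were aligned with BLAST 2.17.0. The members and lists were chosen with earlier results of these data known. Genes were named by rule: the 4 keratins, up to 4 called genes of largest change per list, the 2 highest markers of other cell types, the 5 genes most like the keratins and any copy of a keratin. Vim, Dst, Macf1, Tfap2c, Tead4 and Gata6 were added after their values were seen. Replicates were separate embryos; whether they shared a fertilization is not stated, so p-values measure the spread between these embryos only. All 37 mitochondrially encoded genes were listed at 0.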

Additional observations from a re-analysis of the deposited data

Results flagged for a closer look

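Within each stage of 6 embryos, the highest or lowest embryo was compared with its nearest neighbour for the 4 keratins, 16 groups in all, against Dixon's 95% critical value of 0.625. Chance flags about 1 in 20 groups of continuous values, a rate that does not hold for counts this sparse, where an embryo with the only UMIs of its stage always stands apart. Krt7 in 8CB embryo 3 (6.07 CPM, 2 UMIs), Krt19 in 1C embryo 5 (5.83 CPM, 2 UMIs) and Krt19 in 8CB embryo 2 (3.11 CPM, 1 UMI) each stood apart because the other 5 embryos of the stage were at 0. Each rests on 1 or 2 UMIs.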

How the results depend on the processing

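The call of the 2CB/4CB over the 1C/8CB embryos held for Krt18 (log2 fold change 4.75 to 5.23), Krt7 (3.99 to 4.69) and Krt8 (2.11 to 2.81) under every alternative that tested them. With at least 5 UMIs in 12 embryos Krt8 was not tested, and with thinning before the filter only Krt18 was. With each embryo left out in turn the values were 4.85 to 5.33, 4.14 to 5.61 and 2.44 to 3.11. The replicate number as a block gave 5.15, 4.48 and 2.70 and changed no call of a keratin, and it gave 1 gene for 4CB against 2CB in place of 2. Between same-numbered embryos (36 pairs) the correlation of deviations from the stage mean averaged -0.0156 (range -0.248 to 0.224). The numbers showed no pairing by this measure, which cannot tell whether embryos shared a fertilization. Over the 12 of these pairs that also shared a barcode the correlation averaged 0.0227. The barcode block, thinning on the same genes, 2 group means and leaving out the embryos with over 1000000 UMIs were chosen after seeing the data.

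Thinning on the same genes gave Krt8 1.38 for 2CB against 1C and -1.79 for 8CB against 2CB, neither called, and -0.41 for 8CB against 1C, a change of sign. Leave-one-out ranges were -0.20 to 0.94 for Krt18 in 8CB against 1C, without a call, and -0.0341 to 0.82 for Krt7 in 4CB against 2CB. Counts of called genes were 5197 without a filter and 1061 thinned among stages (main 2799), 5525 and 1210 between the pools (main 3285), 43 by DESeq2 and 104 without a filter for 8CB against 1C (main 0), and 10, 48 and 0 (thinned) for 4CB against 2CB (main 2). Thinning gave 933 for 2CB against 1C (main 2466), 917 for 8CB against 4CB (main 2390), 905 for 4CB against 1C (main 2434; 1498 with only the embryos compared) and 908 for 8CB against 2CB (main 2283). Thinning before the filter left 2007 genes to test, and the 4CB and 1C embryos alone 3623. On the same 5940 genes thinning gave 1761, 1711, 1823 and 1564 in that order, 2663 between the pools and 2111 among stages. Leaving out single embryos gave 0 to 3 genes for 8CB against 1C and 1 to 6 for 4CB against 2CB.

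For the log2 ratio of Krt18 to Krt7 the difference between pools was 2.16 with 1 UMI added and 2.67 thinned, both called, with a leave-one-out range of 1.29 to 1.98; for 8CB against 1C that range was 1.25 to 2.47. It was 0.99 to 1.53 for Krt7 to Krt8 between pools, -0.0671 to 0.69 for Krt7 to Krt8 in 4CB against 2CB (thinned -0.51) and -0.37 to 0.53 for Krt18 to Krt8 in 8CB against 1C. Thinning reversed ratios with Krt19: 0.44 for Krt7 and 0.95 for Krt8 in 4CB against 2CB, where single embryos gave -0.996 to 0.13 for Krt7, and -0.41 for Krt8 in 8CB against 1C. Correlations changed sign when thinned for Krt18 with Krt8 (-0.28), Krt7 with Krt8 (-0.39), Krt18 with Krt19 (-0.30; Spearman -0.0459) and Krt8 with Krt19 (-0.18). Leave-one-out ranges of r were -0.0423 to 0.28, -0.00545 to 0.21, -0.10 to 0.14 and -0.12 to 0.18 for these pairs and -0.0263 to 0.24 for Krt18 with Krt7. The cause of these changes was not tested. Counts were low for Krt19 in all stages, and for Krt7 and Krt8 in 1C and 8CB, with at most 6 UMIs per embryo.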
